A study of Mus musculus with 2 samples.

Results

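The 10 genes described here belong to the BCL2 family, whose proteins decide whether the outer mitochondrial membrane is permeabilised during apoptosis. They were taken by name as 3 survival genes (Bcl2, Bcl2l1 and Mcl1), 2 effector genes (Bak1 and Bax) and 5 BH3-only genes (Bad, Bbc3, Bcl2l11, Bid and Pmaip1). All 10 were found among the 21938 protein-coding genes of GENCODE M21 on the mm10 genome. Open chromatin at these genes was read from ATAC-seq, in which a transposase inserts sequencing adapters into accessible DNA. The series holds 1 group of 2 biological replicates of the mouse line G1E, each made from 50000 cells. G1E is labelled as a Gata1-negative erythroid progenitor line from a male, postnatal C57BL/6J source, and no agent is named. Both replicates therefore lack GATA1, the main transcription factor of red cell maturation, and no GATA1-positive library is part of the comparison. The replicates are separate biosample entries of 1 donor, so their spread may be technical, and no comparison between conditions was possible.

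Accessible regions were the merged peaks of each replicate's list thresholded by the authors on the irreproducible discovery rate, which compares how peaks rank in repeated samples. A region was taken for a gene if it overlapped the gene body or lay within 50 kb of it. After regions of both replicates were joined, 57 were listed around the 10 genes in replicate 1 and 64 in replicate 2. Each region has a signal, the enrichment value of its strongest peak as the authors deposited it, which is not scaled between libraries. Strength is therefore also given as a percentile, the rank of the signal among all regions of the same replicate. Further lists of the authors were used as a check. They are called lenient (1 list of pseudoreplicated peaks per replicate, with more and weaker peaks) and conservative (1 list made from both replicates). The lists hold no read totals. Sequencing depth is therefore not known here, and absence from a list does not show that the DNA was closed.

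Survival proteins of the family bind and restrain BAX and BAK, which form pores in the outer mitochondrial membrane and release cytochrome c. BH3-only proteins relay death signals by neutralising the survival proteins or by activating BAX and BAK directly. In erythroid cells, BCL-XL, the product of Bcl2l1, is known to support survival downstream of the erythropoietin receptor and of GATA1, and MCL1 is needed in earlier progenitors.

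Cell type markers, among them the erythroid genes Klf1, Epor and Slc4a1, were listed with earlier results of these data known. Of 10 erythroid markers, 10 had a promoter region in both replicates, against 39.1% of all protein-coding genes. Of 12 markers of other cell types, 0 had one in both, and 1, the collagen gene Col1a1, had one in replicate 2. An accessible promoter is not a measure of expression, and peak lists cannot show whether Gata1 is intact.

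The distal regions on which much of the description turns are shown as 200 bp around the summit of replicate 1, on the plus strand of mm10. They are the 3 in introns of Bcl2, Bcl2l1 and Bcl2l11, the stronger one upstream of Mcl1 and the stronger one in Bcl2l13. They were chosen after their values were seen, and all 5 hold a GATA match. Such a match is held by 12 of the 18 distal regions in both replicates around the 10 genes. The share over all distal regions in both replicates is 68.7%. A region downstream of Mcl1, with a higher mean percentile than the printed one upstream of it, holds none. Nor does the stronger distal region upstream of Bbc3, at a mean percentile of 69.5. The printed regions of Bcl2l11 and Mcl1 were at 61.9 and 63.5. Capitals mark GATA matches (AGATAA, the variant AGATAG, the variant TGATAA and the variant TGATAG) and E-box matches (CAGNTG), each on either strand.
Bcl2 intronic region, chr1:106658593-106658792: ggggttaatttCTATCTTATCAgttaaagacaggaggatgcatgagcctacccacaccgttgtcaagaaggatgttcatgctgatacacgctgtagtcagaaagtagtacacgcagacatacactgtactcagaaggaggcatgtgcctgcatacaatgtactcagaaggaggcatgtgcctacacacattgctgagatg
Bcl2l1 intronic region, chr2:152789176-152789375: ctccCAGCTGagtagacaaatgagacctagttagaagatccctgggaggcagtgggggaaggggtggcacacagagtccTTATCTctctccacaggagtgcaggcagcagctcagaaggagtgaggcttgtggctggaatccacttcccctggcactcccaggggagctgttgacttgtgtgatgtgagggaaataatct
Bcl2l11 intronic region, chr2:128144159-128144358: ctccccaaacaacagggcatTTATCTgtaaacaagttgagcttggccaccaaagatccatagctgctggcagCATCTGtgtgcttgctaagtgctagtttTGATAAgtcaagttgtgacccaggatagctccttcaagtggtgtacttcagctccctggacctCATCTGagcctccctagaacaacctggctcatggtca
Mcl1 upstream region, chr3:95645420-95645619: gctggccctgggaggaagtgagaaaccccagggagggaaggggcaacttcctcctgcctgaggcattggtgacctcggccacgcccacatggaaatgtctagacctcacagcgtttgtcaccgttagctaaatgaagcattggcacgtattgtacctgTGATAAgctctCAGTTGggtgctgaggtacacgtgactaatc
Region downstream of Bid, in an intron of Bcl2l13, chr6:120854519-120854718: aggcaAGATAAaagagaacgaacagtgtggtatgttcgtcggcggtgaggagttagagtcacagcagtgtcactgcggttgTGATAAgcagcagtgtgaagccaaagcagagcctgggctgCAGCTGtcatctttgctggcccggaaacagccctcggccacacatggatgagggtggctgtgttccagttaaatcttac

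Promoter regions, within 1000 bp of any annotated start site of the gene, were listed in both replicates for 6 of the 10 genes: Bcl2l1, Mcl1, Bak1, Bad, Bcl2l11 and Bid. The background is 39.1% of protein-coding genes, and with 10 chosen genes the count is a description without a test. In replicate 1 alone, 7 of 10 genes had a promoter region (background 40.5%), and in replicate 2 alone 7 of 10 (background 42.1%). Bcl2 had one in replicate 1 only and Bbc3 in replicate 2 only, a state found at 4.52% of all genes. Bax and Pmaip1 had none in either list, as did 56.4% of all genes. Survival, effector and BH3-only genes each included genes with and without a promoter region in both replicates.

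**Figure D1:**
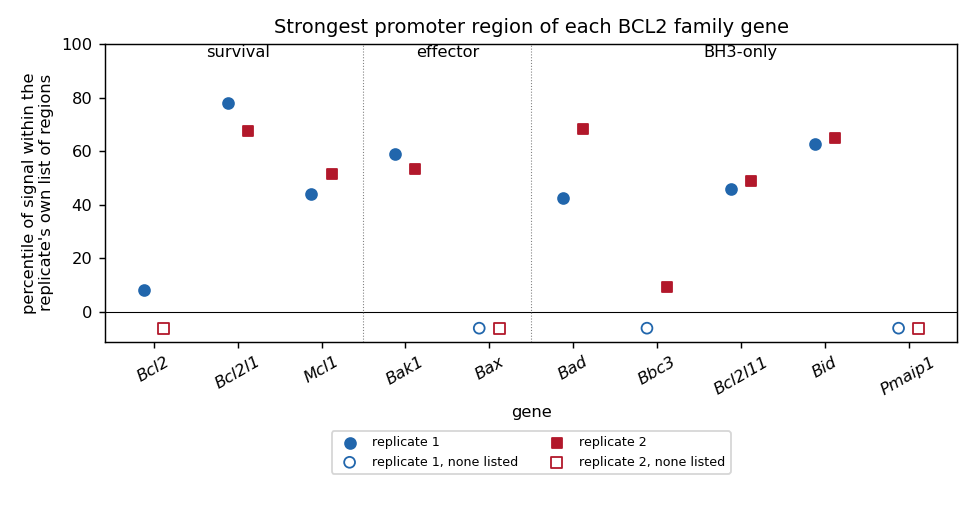
Percentile of the signal of each gene's strongest promoter region within its own replicate's list (y axis), for replicate 1 (circles) and replicate 2 (squares), with open symbols below 0 where none was listed. Bcl2l1 has the highest value in replicate 1 and Bad in replicate 2, while Bcl2 and Bbc3 each have a single weak region.

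The listed promoters were of middling strength. The mean percentile of the strongest promoter region was 72.8 at Bcl2l1, 63.9 at Bid, 56.1 at Bak1, 55.4 at Bad, 47.9 at Mcl1 and 36.6 at Bcl2l11. Their median was 55.8, against 72.7 over all protein-coding genes with a promoter region in both replicates. Bcl2l1 alone exceeded that median, by a margin much smaller than the difference between its own replicates.

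Bcl2l1, which encodes BCL-XL, had the most regions of the 10 genes, 10 in replicate 1 and 12 in replicate 2, of which 8 were in both. At least 8 regions in both replicates were found around 2.85% of all protein-coding genes. The body of Bcl2l1, 51.1 kb against a median of 17.4 kb over all genes, gives it a wider interval, whose part was not tested. The gene lies on chromosome 2, 152780668 to 152831728, on the minus strand. Its stronger promoter region (152830997 to 152831833) had a signal of 11.6 in replicate 1 and 11.0 in replicate 2, at percentiles of 77.9 and 67.6. A weaker promoter region beside it (152830362 to 152830827) overlapped an annotated start site of the gene and had a signal of 9.15 and 6.47. Its percentile was 59.8 in replicate 1 and 23.2 in replicate 2, so that the replicates ranked it differently. Only 5.47% of protein-coding genes had 2 or more promoter regions in both replicates. The stronger region's summit window lay outside annotated untranslated sequence and is printed because this promoter had the highest mean percentile of the 10 genes. Capitals mark the 2 matches to the NFY motif (CCAAT on either strand). At least 1 such match is held by 39.4% of all promoter regions, and 2 or more by 15.5%.
Bcl2l1 promoter region, chr2:152831326-152831525: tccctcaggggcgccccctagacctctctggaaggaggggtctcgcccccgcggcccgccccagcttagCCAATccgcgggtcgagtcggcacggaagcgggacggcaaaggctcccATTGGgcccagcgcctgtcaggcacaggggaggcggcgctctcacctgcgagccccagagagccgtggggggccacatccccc

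Of the 4 distal regions in both replicates around Bcl2l1, defined as over 1000 bp from every annotated start site, 1 lay in an intron of the gene. It was 1130 bp wide (152788910 to 152790039) with its summit 42.5 kb inside the outermost 5′ end. Its signal was 10.7 and 10.9, at percentiles of 72.4 and 66.8, nearly as strong as the promoter. Its −log10 p value was 37.2 in replicate 1 and 38.4 in replicate 2. The window printed above holds 1 GATA match and 1 E-box match. The same window also holds a composite match, in which CTG is followed after 7 or 8 bases by a GATA match. Such composites are a known arrangement of TAL1 and GATA factors.

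Another distal region with a composite match lay beyond the 3′ end of Bcl2l1 (152769782 to 152770127), with a signal of 11.5 and 9.91. Further from the gene, regions at 152739769 to 152740167 (6.48 and 6.53) and 152741481 to 152742010 (4.35 and 6.75) lay short of the start of Id1, which encodes an inhibitor of basic helix-loop-helix factors. The second of them held a match to the STAT motif (TTCNNNGAA), the kind of site bound by the STAT5 factors that act below the erythropoietin receptor. Within the introns of Bcl2l1, 3 more regions were listed in 1 replicate only. Replicate 1 had regions with a signal of 7.51 (152811184 to 152811556) and 5.27 (152817492 to 152817860), each with 2 GATA matches and a composite match. Replicate 2 had one with a signal of 5.77 (152816355 to 152816656) and no GATA match. The lenient lists held all 3 in both replicates.

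Mcl1, which encodes a short-lived survival protein, is a compact gene of 4.39 kb on chromosome 3 (95658788 to 95663176). Its promoter region (95658533 to 95659040) had a signal of 7.60 and 9.08, at percentiles of 44.2 and 51.6. Like Bcl2l1, it had 4 distal regions in both replicates, a number reached by 4.59% of all protein-coding genes. All 4 were intergenic, 2 upstream and 2 downstream of the gene. The strongest by mean percentile lay 15.5 kb downstream of the start (95673968 to 95674553), with a signal of 12.2 and 11.5, and it exceeded the promoter in both replicates. It held a STAT match and no GATA match. The region 13.3 kb upstream (95645367 to 95645737), printed above, had a signal of 7.68 in replicate 1 and 13.5 in replicate 2. Its percentiles of 45.0 and 81.9 were the furthest apart of all 46 regions in both replicates. The remaining regions lay 7.49 kb downstream (95666079 to 95666422; signal 7.60 and 9.68) and 15.5 kb upstream (95643130 to 95643531; signal 5.19 and 4.80), the latter having the lowest mean percentile of the 18 distal regions in both replicates.

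Bcl2, the founding survival gene, spans 176 kb on the minus strand of chromosome 1 (106538178 to 106714274). Its promoter region (106714007 to 106714513) was listed in replicate 1 only, with a signal of 4.78 at the percentile of 8.22. The lenient lists held promoter regions in both replicates, with a signal of 4.78 and 4.34. In those lists 8 of 10 genes had one in both (background 43.3%). The conservative list held the Bcl2 promoter too, and 7 of the 10 in all (background 39.8%). In contrast, an intronic region 55.6 kb inside the 5′ end (106658360 to 106658855) was the strongest distal region around the 10 genes. Its signal was 13.0 and 14.6, at percentiles of 85.8 and 87.4, and the −log10 p value was 37.5 and 47.9. The printed window holds 2 GATA matches that share a base, printed as 1 run of capitals, and a composite match. Another distal region in both replicates lay 24.0 kb upstream in an intron of Kdsr (106738114 to 106738374; signal 7.32 and 5.49). Replicate 1 listed 2 further intronic regions, at 86.8 kb (signal 6.07) and 21.5 kb (signal 5.49) from the 5′ end.

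**Figure D2:**
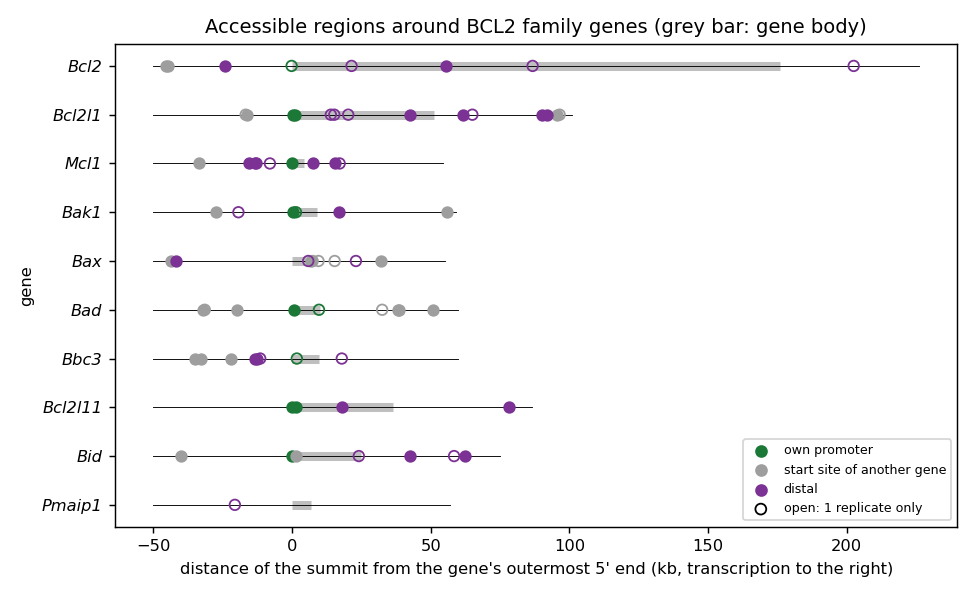
Position of every region around the 10 genes, as the distance of its summit in kb from the gene's outermost 5′ end, with transcription to the right. Filled points were in both replicates, open points in 1, and grey bars are gene bodies. Bcl2l1 and Mcl1 each have 4 filled distal points, and Pmaip1 has a single open one.

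The effector genes Bax and Bak1 differed in their promoters. Bak1, on the minus strand of chromosome 17 (27019810 to 27029009), had a promoter region (27028483 to 27028817) with a signal of 9.06 and 9.25, at percentiles of 58.8 and 53.4. Ggnbp1, which overlaps Bak1, starts within 1000 bp of it as well, and the lists cannot tell the genes apart. A further Bak1 promoter region was listed in replicate 2 only (27027432 to 27027696; signal 6.94). The distal region in both replicates around Bak1 lay in an intron of Ggnbp1, with a signal of 8.54 and 10.4 (27011958 to 27012416).

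Bax, on the minus strand of chromosome 7 (45461697 to 45466898), had no promoter region in either thresholded list. The lenient list of replicate 1 held none either, and that of replicate 2 held 2, the stronger with a signal of 4.61. Its neighbourhood was accessible all the same: 4 regions in both replicates lay within 50 kb, 3 of them at start sites of other genes. The nearest of them was at Ftl1, the gene of the ferritin light chain, with a signal of 8.79 and 10.5 (45459789 to 45460100). The others were at Gys1 and Ruvbl2 (45434188 to 45434972; 11.5 and 14.7) and at Nucb1 (45510196 to 45510838; 8.45 and 11.9). The distal region lay in Nucb1 and Tulp2, 41.8 kb upstream (45508500 to 45508942; 6.25 and 8.14).

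Among the BH3-only genes, Bid had the strongest promoter region by mean percentile. Bid is cut by caspase 8 and links death receptors to mitochondria. Its promoter region (chromosome 6, 120916751 to 120917182) had a signal of 9.54 and 10.7, at percentiles of 62.9 and 64.9, the closest agreement between replicates among the strongest promoter regions of the 6 genes. It was the only promoter region of the 8 around these genes with a GATA match in its 200 bp window, against 16.3% of all promoter regions. A weaker region inside Bid (120915323 to 120915565; signal 4.75 and 7.04) lay at the start site of the predicted gene Gm44260.

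Both distal regions around Bid lay downstream of it in introns of Bcl2l13, another family gene whose product sits on mitochondria. The stronger (120854370 to 120854777), printed above, had a signal of 10.3 and 13.3 and 2 GATA matches. The other (120873770 to 120874285) had a signal of 8.16 and 6.34. The promoter region of Bcl2l13 itself (120834783 to 120835353; 8.87 and 8.85) was the first region outside the limit of 50 kb, 56.6 kb from the body of Bid. The furthest region inside the limit was 46.5 kb from Bak1, at start sites of Zbtb9 and Ggnbp1 (chromosome 17, 26972821 to 26973282; 15.6 and 18.2).

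Bcl2l11 encodes BIM, a BH3-only protein induced by growth factor withdrawal. All 4 of its regions were in both replicates, and it was the only one of the 10 genes with no region in 1 replicate alone. It had 2 promoter regions on chromosome 2. The first (128125444 to 128126166) had a signal of 5.24 in replicate 1 and 8.74 in replicate 2, at percentiles of 13.8 and 48.8. The second (128127308 to 128127605), at a start site inside the gene, had 7.78 and 6.83, at 46.0 and 27.1. The replicates thus ranked them in opposite order. Its intronic region (128143846 to 128144467), 18.2 kb from the 5′ end, had a signal of 9.73 and 9.88 and outranked both promoter regions in both replicates. The printed window of that region holds 2 GATA and 2 E-box matches. A region beyond the gene, in Gm14005 and Gm14009 (128204065 to 128204422), had a signal of 9.02 and 9.09.

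Bad, whose product is held inactive by survival kinases, shared its promoter region with Gpr137 (chromosome 19, 6942345 to 6942664). The signal was 7.42 in replicate 1 and 11.1 in replicate 2, at percentiles of 42.4 and 68.4. A second promoter region, near start sites inside the gene, was listed in replicate 2 only (6951382 to 6951894; signal 9.48). Bad had no distal region in both replicates. Its other 5 regions in both replicates were at start sites of other genes, the strongest by mean percentile at Dnajc4 (6992407 to 6992893; signal 16.0 and 13.0), and 14 other protein-coding genes overlapped the interval.

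Bbc3 and Pmaip1 encode PUMA and NOXA, which are known targets of p53. Bbc3 had a weak promoter region in replicate 2 only, in an intron near an internal start site (chromosome 7, 16310011 to 16310407; signal 5.26, percentile 9.28). The lenient list of replicate 1 held one with a signal of 3.47. A pair of distal regions upstream was stronger and present in both replicates. The stronger, 13.3 kb from the outermost 5′ end (16294822 to 16295321), had a signal of 11.6 and 10.1. The weaker, at 12.8 kb (16295482 to 16295781), had 7.23 and 8.67. Each held an ETS match (CCGGAA). Replicate 2 alone also listed a region beside them (16296824 to 16297161; signal 6.28). A stronger region of replicate 2 only lay downstream in an intron of Sae1 (16326161 to 16326616; signal 11.0, percentile 67.7). It held a GATA match and a p53 half-site.

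Pmaip1, on chromosome 18 (66458533 to 66465565), was the one gene of the 10 with no region in both replicates within 50 kb, as were 31.8% of all protein-coding genes. Its neighbourhood was also the emptiest, with 0 other protein-coding genes in the interval. The single region listed lay 20.6 kb upstream in replicate 1, with a signal of 4.56 at the percentile of 6.20. Neither lenient list held a promoter region at Pmaip1, a state shared with 51.9% of all genes.

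Over all 10 genes, 75 distinct regions were listed in either replicate, and 46 of them (61.3%) were in both, against 67.5% of all 25801 joined regions. Of the 46, 8 were promoter regions of the gene itself, 20 lay at start sites of other genes and 18 were distal. No region belonged to the intervals of 2 of the genes. At least 1 region in both replicates was found for 9 of 10 genes (background 68.2%), and at least 1 distal region for 8 of 10 (background 38.8%). The median number of regions in both replicates was 4.5 per gene, against 2 over all protein-coding genes, and of distal regions 2 against 0. The interval widens with gene length, whose median was 9.93 kb for the 10 genes and 17.4 kb over all genes, and its part in these counts was not tested.

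**Figure D3:**
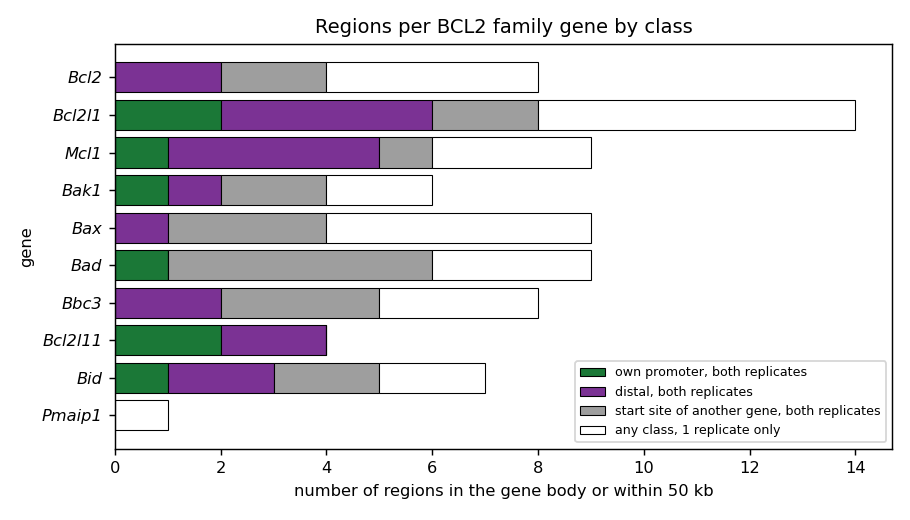
Number of regions in the gene body or within 50 kb of each gene (x axis), split into the gene's own promoter, distal regions and start sites of other genes in both replicates, and regions of any class in 1 replicate only. Bcl2l1 has the longest bar, Bad has 5 regions at start sites of other genes and none that is distal, and Pmaip1 has 1 region in 1 replicate.

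Of the 18 distal regions, 3 lay in the body of one of the 10 genes, namely the introns of Bcl2, Bcl2l1 and Bcl2l11. A distal region of both replicates in the gene body was found for 3 of 10 genes (background 12.7%). These 3 were the longest of the 10 genes, at 176, 51.1 and 36.5 kb. The background is not matched for gene length, and the part of length was not tested. A further 6 of the 18 distal regions lay in other genes and 9 were intergenic, so that which gene they serve is not known. The median of the mean percentile of the 18 was 56.8, from 9.36 to 86.6, against 51.0 over all distal regions in both replicates. Their median width was 426 bp against 492 bp.

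At least 1 GATA match was present in 12 of the 18 distal regions, close to the 68.7% of all 8227 distal regions in both replicates. At least 2 GATA matches were in 3 of 18, at Bcl2, Bcl2l11 and Bcl2l13, against 35.0% of all. In windows of 400 bp, at least 2 were in 4 of 18, against 52.8%. The composite of CTG and GATA was in 3 of 18, the regions at Bcl2 and Bcl2l1 described above, against 18.6%. E-box matches were in 12 of 18 (50.1% of all) and RUNX matches (TGNGGT) in 10 of 18 (44.1%). KLF matches (CCNCNCCC) were in 9 of 18 (2304 of all 8227), AP-1 matches (TGANTCA) in 5 of 18 (14.0%), and NFY matches in 5 of 18 (22.1%). MYC matches (CACGTG) were in 4 of 18 (5.13%), 2 of them around Mcl1 and the others around Bak1 and Bcl2l11. ETS matches were in 3 of 18 (4.79%), namely the 2 upstream of Bbc3 and the stronger one in Bcl2l13. STAT matches were in 2 of 18 (7.27%), at Bcl2l1 and Mcl1. In windows of 100 bp, MYC matches were in 1 of 18 (3.08%), AP-1 matches in 2 (8.70%) and GATA matches in 6 (51.6%). With 18 regions these counts are descriptions only, and a match is not evidence of binding.

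**Figure D4:**
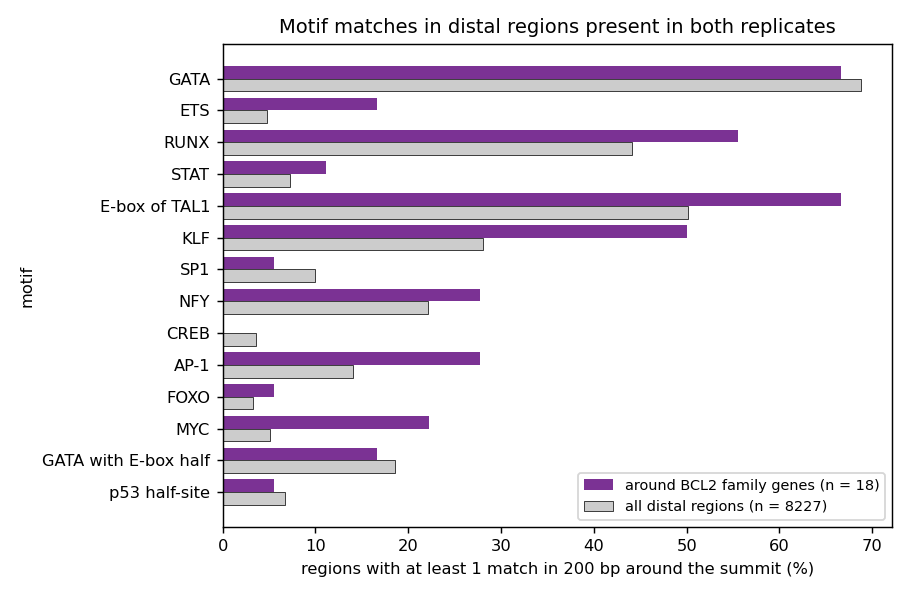
Share of distal regions in both replicates with at least 1 exact match to each of 14 motifs in 200 bp around the summit of replicate 1, for the 18 around the BCL2 family genes (dark bars) and all 8227 (light bars). The GATA bars are nearly equal. The dark bars are longer for ETS, KLF, MYC and AP-1, on 3 to 9 regions each, of which MYC falls to 1 and AP-1 to 2 in windows of 100 bp. They are also longer for E-box, RUNX, STAT, NFY and FOXO, and shorter for SP1, CREB, the composite and the p53 half-site.

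At the 8 promoter regions, SP1 matches (GGGCGG) were in 6 (58.1% of all 8538 promoter regions), ETS matches in 4 (27.3%), NFY matches in 4 (39.4%) and KLF matches in 3 (59.4%). KLF and SP1 matches can overlap. The first promoter region of Bcl2l11 held a FOXO match (GTAAACA), which 1.79% of all promoter regions hold. Its intronic region held another, as do 3.29% of all distal regions. In windows of 100 bp, FOXO matches were in 0 of the 8 promoter regions (0.890% of all) and 0 of the 18 distal regions (1.63%). FOXO factors are known activators of Bcl2l11. In windows of 200 bp, none of the 8 held a STAT (4.57% of all), a CREB (TGACGT, 11.7%) or an AP-1 match (3.61%). A MYC match (8.44% of all) and a composite match (2.79%) were absent from the 8 as well. A p53 half-site, searched by its degenerate consensus, was in 0 of the 8 promoter regions (4.08% of all) and in 1 of the 18 distal regions (6.67%), the one at 152739769 to 152740167 beyond Bcl2l1.

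CpG content did not separate the genes with and without a promoter region. In 1000 bp around the outermost 5′ end, the observed to expected CpG ratio was 0.972 at Pmaip1, 0.870 at Bcl2 and 0.708 at Bax. It was 0.762 at Bcl2l1, 0.955 at Mcl1, 0.845 at Bad, 0.768 at Bcl2l11 and 0.734 at Bid, all of which had a promoter region. Bak1, with 0.279, had one too. Over all genes the median was 0.741 for those with a promoter region in both replicates and 0.280 for those with none. Among the 665 genes with a ratio as high as that of Pmaip1, 169 (25.4%) had no promoter region in either list, as had 25.6% of the 7297 genes at or above the ratio of Bax. Bbc3 had 0.228 at its outermost 5′ end and 0.783 at the start site where the ratio was highest.

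The rank of a region often differed between replicates. Between them the percentile of the 46 shared regions differed by a median of 10.8, against 8.77 over all shared regions, and by at most 36.9. Of the 46, 26 had the higher percentile in replicate 2. The 29 regions listed in 1 replicate, 11 in replicate 1 and 18 in replicate 2, had median percentiles of 14.1 and 17.4. They were not all weak: the region in the Sae1 intron near Bbc3, at 67.7, and the one at 106511656 to 106511889 downstream of Bcl2, at 57.8, were both in replicate 2 only. Of these 29, 16 had a counterpart in the lenient list of the other replicate.

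**Figure D5:**
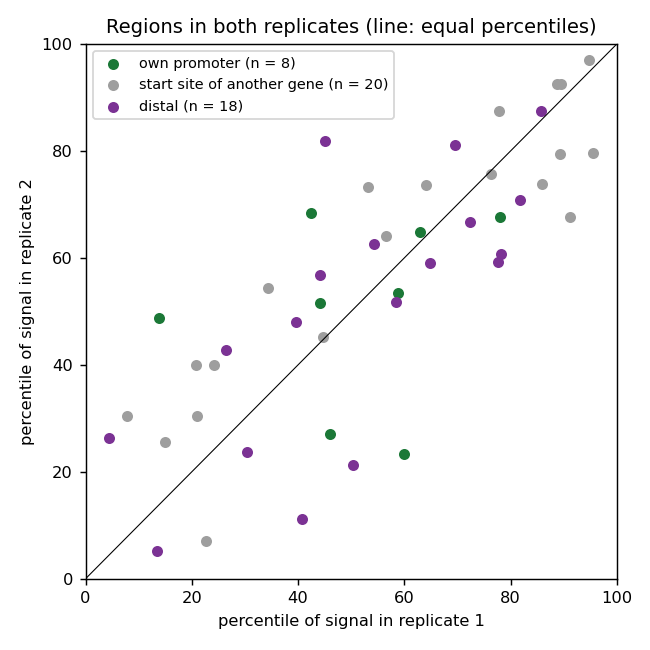
Percentile of signal in replicate 1 (x axis) against replicate 2 (y axis) for the 46 regions in both replicates, coloured by class, with a line of equal percentiles. The distal region upstream of Mcl1 lies furthest above the line, at 45.0 and 81.9.

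Beyond the 10 genes, 54 further genes of the apoptosis pathway were searched for regions in the same way, and 36 of them (66.7%) had one at the promoter in both replicates (background 39.1%). The other BCL2 family genes had the lowest share, 5 of 15. Their strongest promoters were at Bnip3l (signal 13.3 and 14.1) and Bnip3 (13.5 and 13.1), which encode mitophagy receptors, Bnip3l being needed to clear mitochondria from maturing red cells. Bcl2l12, Bcl2l13 and Bcl2l2 had one too, and Bcl2a1a and Bcl2a1b, survival genes of leukocytes that share near-identical copies, had none in either list.

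The apoptosome and caspase genes had a promoter region in 11 of 12 cases, led by Cycs, which encodes cytochrome c (percentiles 90.8 and 96.7), and Casp6 (84.9 and 89.2). Inhibitors of apoptosis had 5 of 6, with Birc6 (10.5 and 13.8) and Birc2 (10.7 and 12.6) strongest and Naip1 without one. Of the death receptor pathway genes 5 of 9 had one, with Ripk1 (11.3 and 10.7) and Casp8 (9.85 and 10.7) strongest, while the receptor Fas and its ligand Fasl had none.

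In the p53 list 6 of 7 promoters were listed in both replicates, with Mdm4 (14.7 and 16.8) and Trp53inp1 (10.6 and 14.5) strongest. Trp53 itself had one (5.83 and 9.05), as had its target Cdkn1a (percentiles 39.9 and 59.9), and Zmat3 had one in replicate 2 only. Mdm2, which encodes the ubiquitin ligase of p53, had a promoter region at percentiles of 10.9 and 36.1 and 7 distal regions shared by the replicates. At least 4 such distal regions were found around 4.59% of all protein-coding genes. Of 5 genes for partners of BCL2 proteins at membranes, 4 had one in both, with Bcap31 (12.3 and 12.7) and Vdac2 (10.5 and 10.4) strongest.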

How the data were processed

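ATAC-seq peak lists of 2 replicates of G1E on mm10 were analysed. The peaks were derived from alignments plus another file that is not described, per the deposited notes. The aligner and the peak caller are not given in the sources. The authors deposited a signal value per peak, an enrichment score whose scale is not stated. They also deposited a −log10 p value per peak, read by the narrowPeak column order. Depth is unknown, since the lists hold no read totals.

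The thresholded lists held 26083 and 27810 peaks. Overlapping or touching peaks were merged, keeping the values of the strongest, into 21194 and 22620 regions, and regions of both replicates were joined at an overlap of 1 bp. The lenient lists gave 35229 and 39290 regions. Start sites came from GENCODE M21, and sequences from RefSeq's GRCm38 genome, in which the regions fitted all 21 chromosomes. CpG ratios used 1000 bp around the outermost 5′ end. Motifs were exact matches on either strand in 200 bp around the summit.

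Merging, overlap and motif steps were tested on simulated data. Python 3.11.15, pandas 2.3.3, numpy 2.4.6 and pysam 0.24.0 were used. The members and gene lists were chosen with earlier results of these data known. From each further list, the rule named the 2 genes whose promoter region in both replicates was strongest, and up to 2 without any, taken alphabetically. Bcl2l12, Bcl2l13, Bcl2l2, Trp53, Cdkn1a, Zmat3, Mdm2 and the markers named were chosen after their values were seen. No test was made, as there is 1 group.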

Additional observations from a re-analysis of the deposited data

How the results depend on the processing

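The number of genes with a promoter region in both replicates was 6 of 10 (background 39.1%). Among the stronger 50% of regions it was 3 (Bcl2l1, Bak1 and Bid), near the background of 27.2%. It was 8 in the lenient lists (background 43.3%), which added Bcl2 and Bbc3, and 7 in the conservative list (background 39.8%), which added Bcl2. Bax and Pmaip1 were not counted under any of these settings, promoter windows of 500 and 2000 bp and start sites of protein-coding transcripts included. The lenient list of replicate 2 alone held promoter regions at Bax. The 46 regions in both replicates became 70 with the lenient lists and 24 among the stronger 50% or within 20 kb. The 18 distal regions became 35 with the lenient lists and 9 among the stronger 50%. Leaving out 1 replicate gave 7 genes in both cases, 58 to 65 regions and 27 to 28 distal regions. The median number of regions per gene, 4.5, was 7 with the lenient lists, 2.5 among the stronger 50%, 4 at a reciprocal overlap of 50%, 2 within 20 kb and 7.5 within 100 kb. It was 6 without either replicate. Over all genes it was 1 to 3. The 12 distal regions with a GATA match were 6 in windows of 100 bp (33.3%, against 51.6% of all distal regions), so that their share was no longer close to that of all regions. The settings differ in how many regions, how much distance or how long a window they admit. The part of each in these shifts was not tested. No paired analysis was possible because there is 1 group. A region that is not listed may lie below the unknown detection limit of the library.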
